A study of Sus scrofa with 6 samples.

Results

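Among 294825 regions obtained by merging the chromatin accessibility peaks of 6 libraries of pig somites and myotomes, 12622 (4.28%) were promoter regions open in every library. A region belonged to this set when it held a peak of all 6 libraries, lay on an autosome, was narrower than 5000 bp and overlapped the window from 2 kb upstream to 200 bp downstream of an annotated gene start of the pig genome build Sscrofa11.1. An overlap of 1 bp was enough for merging. The regions were thus chosen by measured values, the presence of a peak in each library and the width, and made up 16.1% of the 78533 regions shared by all 6 libraries.

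Single-cell ATAC-seq (scATAC-seq), which tags open chromatin in single nuclei with the Tn5 transposase, was carried out on somites at embryonic day (E) 18 and E21 and on myotomes at E28. At each of the 3 stages there was 1 library of Tibetan pigs (ZZ) and 1 library of Duroc × Tibetan pigs (DZ), and each library pooled 5 embryos of 1 sow. The labels name no treatment and no altered gene. There was no replicate within a stage and breed, so the ZZ and DZ libraries of a stage served as its 2 samples. Each p-value below measures the spread left between libraries after terms for stage and breed. Stage and tissue cannot be told apart at E28. Counts were summed over all cells of a library, in which fewer cells of a type and less accessible chromatin per cell cannot be told apart.

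A promoter is the stretch of DNA around the start of a gene on which RNA polymerase II and general factors assemble. Promoters of genes that every cell uses usually lie in CpG islands, stretches rich in G, C and the dinucleotide CpG, and stay free of nucleosomes in most cell types. Promoters of genes used by 1 cell type more often lack such an island, and some carry a TATA box. Somites are the paired blocks of mesoderm beside the neural tube, and the myotome is the part of the somite that forms skeletal muscle.

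Results below turn on promoters of different base composition, and 5 of them are shown as the 150 bases before the gene start, read 5′ to 3′ on the strand of the gene from the Sscrofa11.1 genome with the start sites of the RefSeq annotation. The first belongs to a muscle gene that rose from E18 to E28, the next 2 to neuronal genes that fell, and the last 2 to genes of transcription and splicing that rose. Capitals mark, on either strand, the motif GGGCGG known as the GC box, the letters CCAAT of the box of that name, or the motif TATAAA known as the TATA box.
NEB promoter, chr15:546037-546186, plus strand: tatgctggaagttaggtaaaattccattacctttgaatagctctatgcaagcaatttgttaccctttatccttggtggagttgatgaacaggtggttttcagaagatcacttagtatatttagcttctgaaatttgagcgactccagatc
SLC12A5 promoter, chr17:48191922-48192071, plus strand: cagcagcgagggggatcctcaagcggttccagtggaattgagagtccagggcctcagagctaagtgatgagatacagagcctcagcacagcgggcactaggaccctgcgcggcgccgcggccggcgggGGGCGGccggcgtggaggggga
SCN9A promoter, chr15:72912353-72912502, minus strand: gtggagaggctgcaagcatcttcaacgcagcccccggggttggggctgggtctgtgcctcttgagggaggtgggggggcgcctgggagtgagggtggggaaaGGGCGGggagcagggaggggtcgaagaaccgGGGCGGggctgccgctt
POLR2A promoter, chr12:52779683-52779832, plus strand: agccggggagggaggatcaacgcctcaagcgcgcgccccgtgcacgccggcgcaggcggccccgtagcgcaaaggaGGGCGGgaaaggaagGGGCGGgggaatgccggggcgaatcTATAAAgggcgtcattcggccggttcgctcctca
SRSF2 promoter, chr12:4800428-4800577, plus strand: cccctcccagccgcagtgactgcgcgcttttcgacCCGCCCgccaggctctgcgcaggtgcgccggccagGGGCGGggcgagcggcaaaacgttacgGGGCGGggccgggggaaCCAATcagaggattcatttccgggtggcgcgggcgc
NEB held 1 CpG dinucleotide, a GC content of 37.3% and none of these motifs. SLC12A5 and SCN9A held 13 and 8 CpG and a GC content of 68.7% and 70.7%. POLR2A and SRSF2 held 20 CpG each and a GC content of 70.0% and 73.3%.

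The libraries held 64439 barcodes, of which 58809 (91.3%) carried between 2000 and 30000 counts and were kept, 9286 to 11243 per library with 89816504 to 133037579 counts. Any pair of libraries had 113 to 157 barcode sequences in common (1.22% to 1.66%). Peaks had been called in each library separately and numbered 131975 to 217138, so the stretch of a region on which counts exist, its covered length, differed between libraries. The median covered length of the promoter regions in ZZ and DZ was 2076 and 1965 bp for E18, 1884 and 1886 bp for E21, and 1620 and 1629 bp for E28. In 8346 (66.1%) the 6 covered lengths lay within 1.5 times of each other, and these are referred to as regions of stable covered length. For the calls that follow, the covered length changed in the direction of the call in 51.8% of calls of E28 against E18, 87.1% of E21 against E18 and 88.9% of E28 against E21. Its part in the calls was not tested.

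The promoter regions covered 14482 of 24755 autosomal gene starts (58.5%). They held the starts of 12270 of 18725 protein-coding genes (65.5%) and 1899 of 5206 long non-coding RNA genes (36.5%). The median width was 2177 bp (335 to 4994 bp), and in 11186 regions (88.6%) the start itself lay inside. In 2204 regions (17.5%) gene starts lay on both strands. The width limit split genes of equal standing: TLE4, IRS1 and LOC110259840 (4994 bp each) lay just inside, and NPTX1 (5002 bp), UVRAG (5002 bp) and LOC106508915 (5003 bp) just outside. A further 1192 shared promoter regions reached 5000 bp or more. These held the starts of PAX3, PAX7 and MYF5, which mark muscle progenitors, of MEIS1 and of EGR1, RHOB, FOS and KLF2, whereas MYOG, MYOD1 and SOX6, which the study also names, lay in narrower regions and are described here. Each of these wide promoters also carried a peak in all 6 libraries.

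Openness was measured as a share of barcodes, which also grows with the width of a region. By this measure the promoter regions were more open than shared regions in introns or far from genes. They were less open than the shared promoters of 5000 bp or more, whose medians were 8.24% to 9.11%. A region was counted open in a barcode when it held at least 1 fragment. Each barcode was first thinned to 2000 fragments over all peaks of its library (7910 to 10822 barcodes per library). Those peaks covered 191 and 168 Mb at E18 and 102 and 108 Mb at E28. Depth within the shared regions was therefore not made equal. The median promoter region was open in 4.56% to 5.03% of barcodes per library, against 0.619% to 0.711% for 27024 shared regions in introns and 0.545% to 0.711% for 6672 shared regions over 50 kb from a gene. Without thinning the promoter medians were 11.5% to 13.9%. Requiring a peak in 6 libraries sets a floor on these levels, and they carry no test. Averaged over libraries the open share ran from 0.136% to 26.3%, 5991 regions (47.5%) lay above 5% and 1401 below 1%. Regions with starts on both strands had a higher median than those with starts on one strand (6.74% and 4.33%), also per length (20.6 and 14.0 CPM per kb, CPM being library-normalised counts). Per length the order of the narrower and the wider promoters was reversed. Medians per library were 13.6 to 17.3 CPM per kb for the promoter regions and 8.48 to 11.4 for those of 5000 bp or more.

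**Figure D1:**
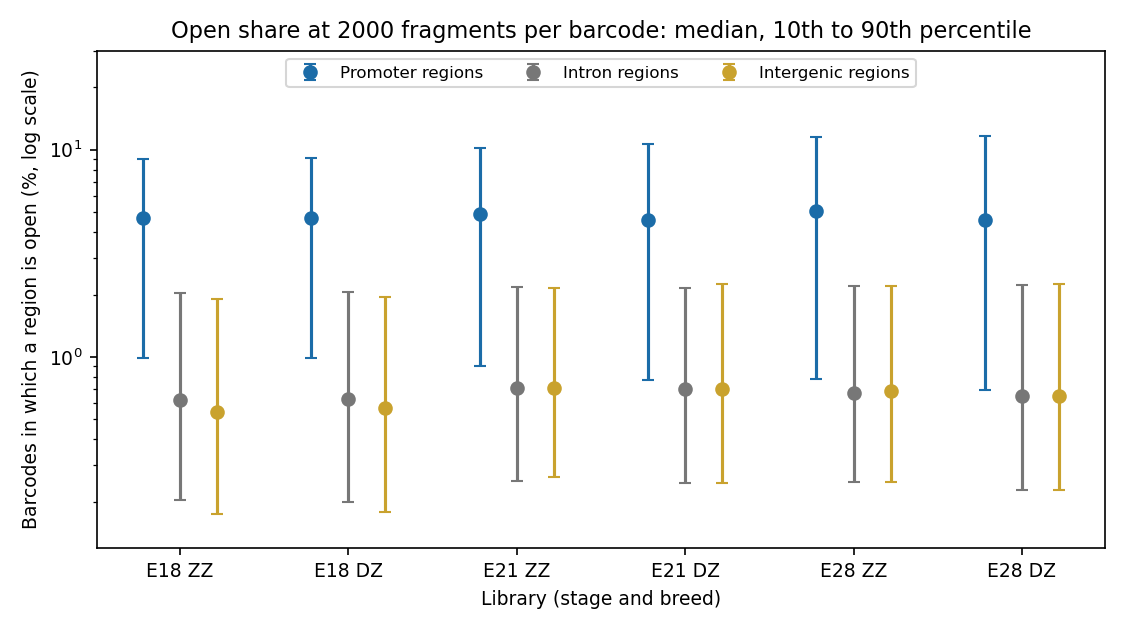
Share of barcodes in which a region was open (%, log scale) in each of the 6 libraries at 2000 fragments per barcode, for promoter, intron and intergenic regions. Points are medians over regions and bars run from the 10th to the 90th percentile; the promoter medians lie between 4.56% and 5.03% in every library, and the medians of the other classes at or below 0.711%.

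The highest mean open share over the 6 libraries (26.3%) was that of the promoter of FBXL19, which encodes a CpG-binding F-box protein (chr3:17517305-17521770). It was open in 19.8% of E18 ZZ barcodes (95% Wilson interval 19% to 20.5%) and 19.3% of E18 DZ barcodes (18.6% to 20.1%). At E21 it was open in 25.9% (25% to 26.8%) and 28.9% (27.9% to 29.9%), and at E28 in 30.8% (29.8% to 31.8%) and 33.2% (32.2% to 34.2%). It was not the most open promoter at E18, where the highest share was 25.6% in ZZ and 25% in DZ. These intervals cover counting error only. The next by mean open share were SETD5 (24.9%), ZBTB20 (24.6%), USP5 (23.8%), XPO1 (23.5%), which encodes a nuclear export receptor, PPP2R5A (23.2%), SERTAD2 (23.1%), RNF5 (23.0%), MRPL12 (22.9%) and OARD1 (22.5%). The least open with a named gene were CDC20B (0.136%), ART5 (0.143%), KLHDC9 (0.144%), ABRA (0.159%) and CAPN3 (0.165%). ABRA and CAPN3 are genes of striated muscle. The 10 promoters with the highest mean open share were called higher at E28 than at E18. So were 1499 of the 2525 most open promoters (8.14% to 26.3%). The mean included the E28 libraries, so this count is a description. ART5, KLHDC9, ABRA and CAPN3 were not called in either direction, and only 18.3% of the 530 promoters below 0.5% open were called.

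The share of all kept counts that fell in the promoter regions in ZZ and DZ was 33.5% and 33.6% for E18, 36.8% and 36.4% for E21, and 39.7% and 38.0% for E28. The stage means were 33.6% ± 0.101 (SD, n = 2), 36.6% ± 0.228 and 38.9% ± 1.2. The stages did not overlap, and no test was made of these shares. Of the counts in shared regions alone, the promoters took 41.0% ± 0.0114, 41.8% ± 0.168 and 43.5% ± 0.413. On average a barcode thinned to 2000 fragments had 624 and 624.5 of the promoter regions open for E18, 676.9 and 667.0 for E21, and 723.7 and 694.3 for E28. The number also went up in the other classes, from 251.8 and 255.1 for E18 to 279.9 and 276.6 for E28 among introns and from 56.7 and 58.5 to 69.2 and 68.9 among intergenic regions, and from 1544 and 1548 to 1697 and 1643 over all shared regions. Thinning was over all peaks of a library, so depth within shared regions was not made equal in these numbers.

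To see how the shared promoters changed from the somite at E18 to the myotome at E28, counts of all 78533 shared regions were compared with edgeR's quasi-likelihood test, with stage and breed as terms, 2 residual degrees of freedom and Benjamini-Hochberg adjustment at 0.05. Of the promoter regions 3065 were higher and 1940 lower at E28, or 24.3% and 15.4%, where 19% and 18.1% of all shared regions were higher and lower. In the open share, tested with limma, 3358 were higher and 1796 lower, beside 20.8% and 17.5% of all shared regions. That split depended on how depth was handled, with 1036 higher and 3620 lower without thinning, and 2139 and 2430 when thinned to 1500 fragments within shared regions. All shared regions then had 14.4% higher and 28.9% lower, and 16.8% and 21.1%. Both tests called 4597 promoter regions, 2915 higher and 1682 lower. Of all 78533 shared regions both called 26652, 14166 higher and 12486 lower. In either set 0 were called in opposite directions, and the tests draw on the same barcodes of the same libraries. Among the regions of stable covered length 2620 rose and 558 fell, or 31.4% and 6.69%, where 24.0% and 4.98% of all such shared regions did. The split between directions depended on the scaling. Shared regions of stable covered length had a median log2 fold change of 0.24 when scaled with the others and of 0.00 when fitted alone, and on the second scale 1072 promoter regions of the 8346 were higher and 1756 lower. These are 12.8% and 21.0%, beside 18.0% and 17.0% of all such shared regions, so that on this scale the promoters had the smaller share of rises and the larger share of falls. With the covered length as an offset 6547 were higher and 713 lower (51.9% and 5.65%), close to the 45.8% and 6.39% of all shared regions. The median log2 fold change was then 0.37 for the promoter regions and 0.43 for all shared regions, so 0 was not the middle of that scale. With library totals alone 2539 were higher and 2266 lower (20.1% and 17.9%), beside 17.3% and 20.1%. Without the E18 DZ library 862 were called, and without the E18 ZZ, E21 ZZ or E21 DZ library 2833, 3177 and 3190.

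Although many promoters were called, they moved little. The median absolute log2 fold change was 0.37 for the promoter regions, 0.67 for all shared regions, 0.86 for intron regions and 0.96 for intergenic regions. A change that was called and exceeded 2-fold was found in 1296 promoter regions (10.3%, 313 higher and 983 lower), in 27.4% of all shared regions, in 32.3% of intron regions and in 36.6% of intergenic regions. Of the called promoter regions 2184 changed by less than 1.5-fold. Among regions of stable covered length the shares beyond 2-fold were 2.35% for promoters, 17.2% for introns and 21.0% for intergenic regions. The excess of falls was absent there, with 101 promoters higher and 95 lower, beside 2369 and 341 of all such shared regions. Shared promoters of 5000 bp or more resembled the narrower ones in size of change (median absolute log2 fold change 0.36, 11.8% beyond 2-fold) but had 227 higher and 360 lower, and 169 higher and 53 lower at stable covered length. No test was made between classes, since the regions of 1 library are not replicates.

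**Figure D2:**
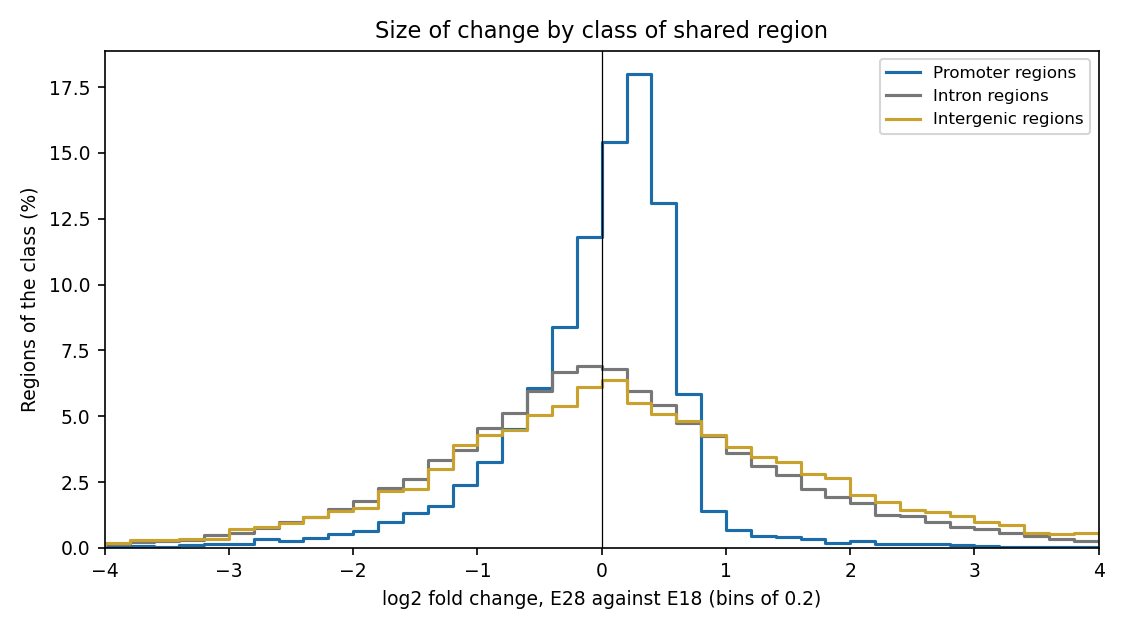
Distribution of the log2 fold change of E28 against E18 (horizontal axis, bins of 0.2, from -4 to 4) in promoter, intron and intergenic regions shared by all libraries, as the percentage of each class (vertical axis). The promoters, of stable and unstable covered length together, stand in a narrow peak above 0 and have a longer tail on the lower side. Median absolute values are 0.37, 0.86 and 0.96.

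Promoters are also more open than the other classes, and weakly open regions were measured less precisely, with a median SE of the log2 fold change of 0.32 in the least open 1 of 5 equal parts of the promoters and 0.10 in the most open. When classes were compared at like open share, in strata chosen after values were seen, the difference held only in part. Below 0.5% open the promoters had a median absolute log2 fold change of 0.92 and intron regions of 0.78, and between 0.5% and 1% the values were 0.92 and 0.94. Between 1% and 2% they were 0.75 and 0.92. Between 2% and 4% open the promoters stood at 0.37, introns at 0.73 and intergenic regions at 0.90, and between 4% and 8% at 0.28, 0.58 and 0.75. Beyond 2-fold and called were 12% of promoters, 38.3% of introns between 2% and 4%, and 1.76% and 25.7% between 4% and 8%. At 8% or more the medians were 0.37 for the promoters and 0.38 for only 40 intron regions. At stable covered length the promoters and introns between 0.5% and 1% open stood at 0.38 and 0.46, with 10.7% and 17.6% called beyond 2-fold. Between 1% and 2% they stood at 0.43 and 0.56, with 14.1% and 25.6% beyond 2-fold. Between 2% and 4% the values were 0.29 and 0.55, with 4.88% and 24.65%, and between 4% and 8% 0.27 and 0.52, with 1.05% and 23.95%. Below 0.5% open they stood at 0.48 and 0.47, with 6.8% and 4.29% beyond 2-fold, and at 8% or more both stood at 0.38.

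The direction of change differed with openness, in a way that depended on the scaling. The promoter regions were ranked by mean open share and divided into 5 equal parts. In the least open part (0.136% to 1.87%) 231 were higher and 711 lower at E28, with a median log2 fold change of -0.47. In the middle part 382 were higher and 345 lower (median 0.06). In the most open part (8.14% to 26.3%) 1499 were higher and 28 lower (median 0.36). Among regions of stable covered length fitted alone, the 5 medians in the same order were -0.15, -0.29, -0.13, -0.01 and 0.13, with 69, 71, 124, 228 and 580 higher and 118, 519, 574, 390 and 155 lower. The most open part was therefore the only one with more higher than lower calls on both scales. Because the ranking used the same libraries as the comparison, these counts are a description. From the least to the most open part the share of regions with starts on both strands went from 4.44% to 31.8% and the median width from 1324 to 2762 bp.

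**Figure D3:**
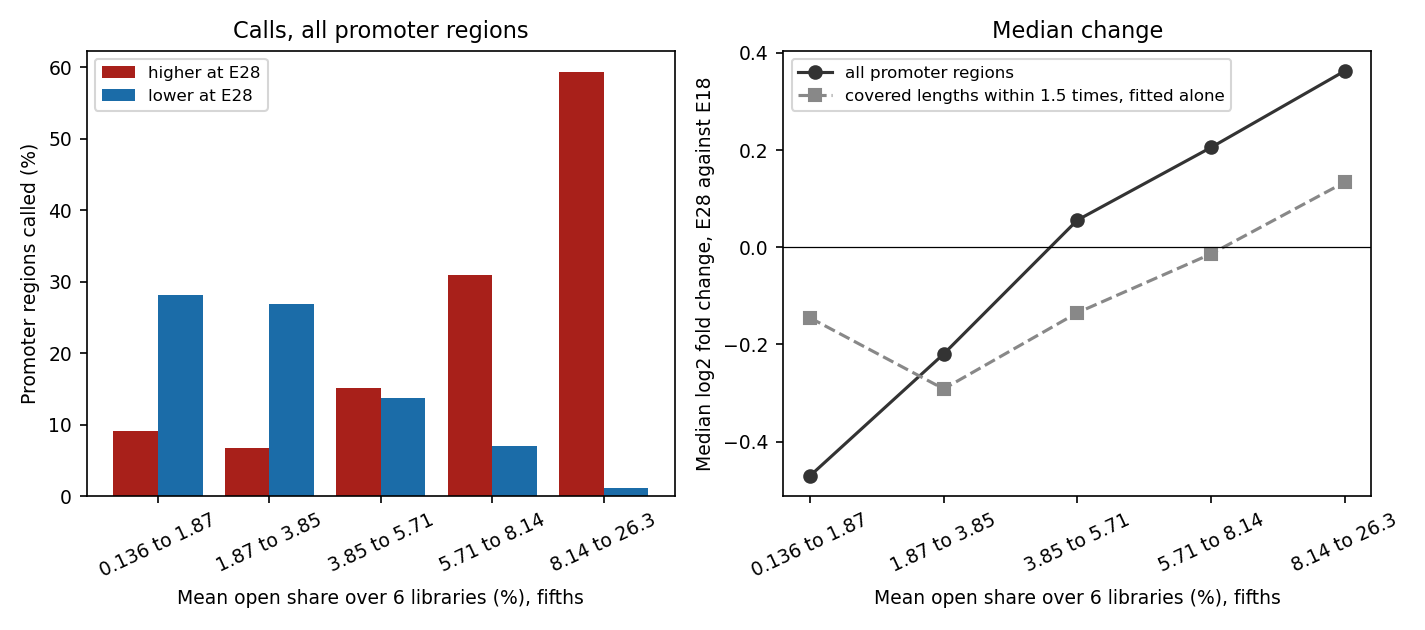
Promoter regions in 5 equal parts by mean open share (horizontal axes, %). Left, percentage of each part called higher (red) or lower (blue) at E28 than at E18; right, median log2 fold change over all promoter regions (solid line) and over those of stable covered length fitted alone (dashed line), which lies below the solid line except in the least open part.

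The 10 largest rises at stable covered length were led by NEB. The promoter of NEB, which encodes the thin filament protein nebulin (chr15:545430-547530), had 2.51 (ZZ) and 2.07 (DZ) CPM at E18. CPM scales the count of a region by the total of its library in shared regions times its normalisation factor (TMM, 0.952 to 1.03). It reached 5.08 and 6.49 by E21, then 10.1 and 16.0 by E28, with ZZ given first here and below. The stages did not overlap and were in order of age, and the log2 fold change of E28 against E18 was 2.47 (SE 0.32, edgeR adjusted p = 0.00463). NEB was open in 0.518% of E18 ZZ barcodes (95% Wilson interval 0.399% to 0.671%) and in 2.48% of E28 DZ barcodes (2.16% to 2.84%). These libraries differ in breed as well as stage, and the intervals cover counting error only. GDF5, a growth factor of joints and tendons, had 7.84 and 6.66 CPM in the E18 pair, 10.9 and 12.6 in the E21 pair and 33.7 and 39.8 in the E28 pair (log2 2.34, SE 0.19, edgeR adjusted p = 0.00256). It lay well apart from both earlier stages at E28. RHOJ, a small GTPase of endothelial cells, went from 13.9 and 15.1 to 51.9 and 67.2 CPM (log2 2.03). CSPG4, the NG2 proteoglycan of pericytes, had 1.73 and 1.28 in the E18 pair, 1.23 and 2.30 in the E21 pair and 5.96 and 5.84 in the E28 pair (log2 1.96), so that E18 and E21 overlapped and E28 stood apart.

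A pair of matrix genes was also among the 10 largest rises. The promoter of DCN, the collagen-binding proteoglycan decorin (chr5:91677250-91678861), had 4.93 and 4.48 CPM in the E18 pair, 6.22 and 8.54 in the E21 pair and 15.7 and 13.3 in the E28 pair (log2 1.62, SE 0.27, edgeR adjusted p = 0.00812). COL3A1, the chain of type III collagen, had 15.6 and 11.8, 21.6 and 24.6, and 40.1 and 42.4 (log2 1.59, SE 0.18, edgeR adjusted p = 0.00355). In both the 3 stages were in order of age without overlap. The other 4 of the 10 largest rises were GAST, the hormone gastrin (log2 1.73), RASSF9 (1.65), SMIM2 (1.62) and TMIE, a protein of hair cell mechanotransduction (1.57).

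The 10 largest falls at stable covered length were led by SLC12A5. The promoter of SLC12A5, the neuronal potassium-chloride cotransporter KCC2 (chr17:48191715-48193567), had 40.2 and 41.4 CPM in the E18 pair, 18.9 and 14.5 in the E21 pair and 9.58 and 9.64 in the E28 pair. The log2 fold change of E28 against E18 was -2.09 (SE 0.17, edgeR adjusted p = 0.00256), and the fall was already called at E21 (-1.30, adjusted p = 0.0226). It was open in 6.36% of E18 ZZ barcodes (95% Wilson interval 5.91% to 6.83%) and in 1.61% of E28 ZZ barcodes (1.36% to 1.91%). SCN9A, a sodium channel of sensory neurons (chr15:72911441-72913304), went from 34.1 and 34.5 through 22.1 and 19.8 to 12.8 and 10.3 (log2 -1.58, SE 0.15, edgeR adjusted p = 0.00287). TCF21, a transcription factor of visceral and facial mesoderm, went from 29.4 and 29.2 through 12.1 and 12 to 7.84 and 8.60 (log2 -1.83). In these 3 promoters the ZZ and DZ libraries of E18 lay close together and no stage overlapped another. The others were IGFALS, a serum carrier of insulin-like growth factors (log2 -1.85), NAGS, an enzyme of the urea cycle (-1.58), SLC29A2, a nucleoside transporter (-1.56), ZNF641 (-1.55), SLCO4C1 (-1.51), CYYR1 (-1.49) and OC90, an otoconial protein (-1.49). All 20 moved in the same direction in both breeds, which the choice required.

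**Figure D4:**
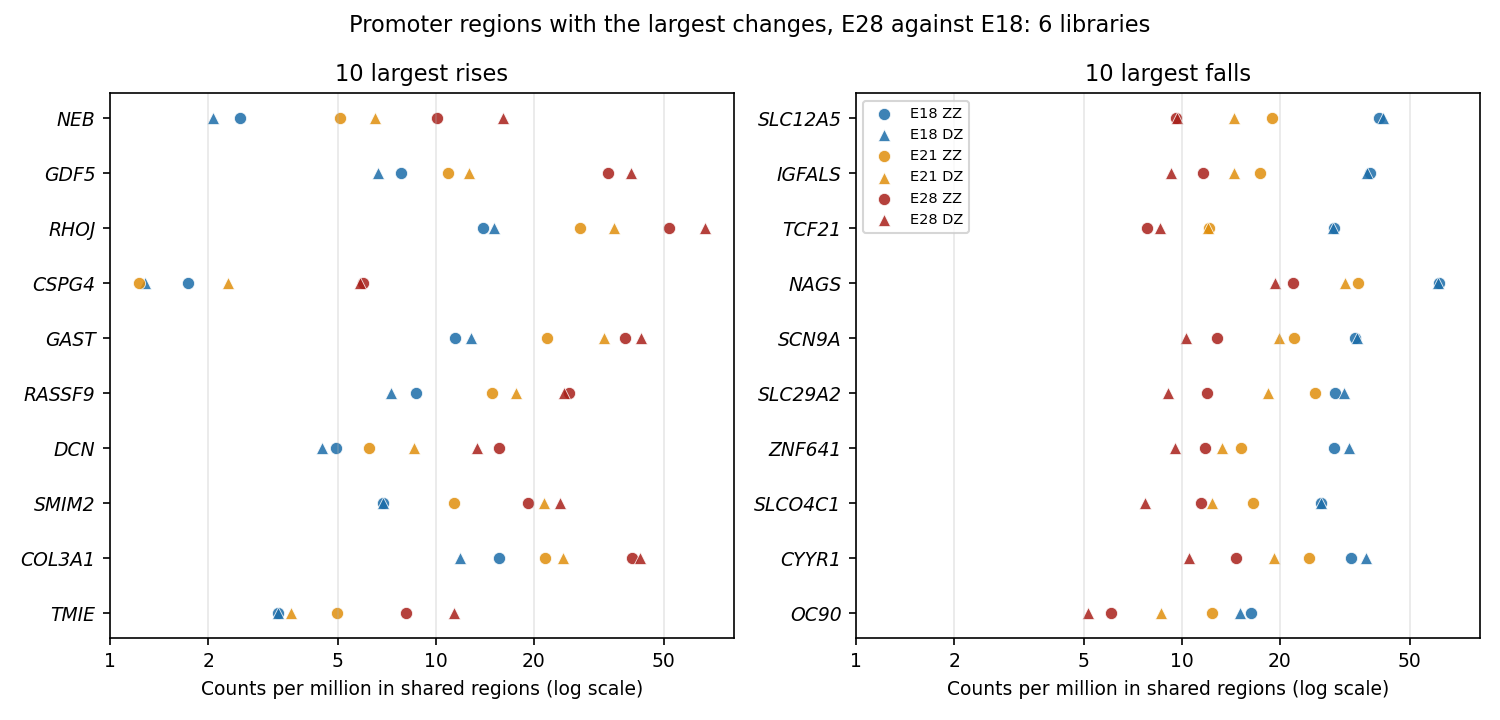
CPM in shared regions (horizontal axis, log scale) of the 10 promoter regions with the largest rise (left) and the 10 with the largest fall (right) from E18 to E28 among those of stable covered length; colour gives the stage, circles are ZZ and triangles DZ. E18 and E28 points are apart in every row, from 2.07 to 16.0 for NEB at the extremes and from 41.4 to 9.58 for SLC12A5.

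Gene lists from textbook knowledge were counted next. The 24 lists held 687 genes, of which 527 had a shared promoter region, 92 lay in regions of 5000 bp or more, 21 had no region with peaks of all 6 libraries, 20 had no peak, 7 lay on a sex chromosome, 4 were not on an assembled chromosome and 16 symbols were not found in the annotation. Of the 527 promoters 221 were higher and 46 lower at E28 with edgeR, where 24.3% and 15.4% of all promoter regions and 19% and 18.1% of all shared regions were. The median log2 fold change was 0.10 for all promoter regions and -0.02 for all shared regions. Of the 409 with stable covered length, fitted alone, 86 were higher and 37 lower, where 12.8% and 21.0% of all such promoter regions and 18.0% and 17.0% of all such shared regions were. Without the E18 DZ library, which leaves 1 library of E18, fewer of all promoter regions were called, as given above, and several lists kept no call. The loss of calls in a list without that library, given below, is therefore not a result about the list. The median log2 fold change of the 527 was then 0.24, beside 0.09 for all promoter regions.

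Myogenic regulators had 14 shared promoters, of which 5 rose and 1 fell (median 0.11). At stable covered length fitted alone 2 of 10 were higher and 1 lower (median -0.13), and without the E18 DZ library 0 were called. The promoter of MYOG, the factor that drives myoblasts into terminal differentiation (chr9:113782863-113786127), had 8.58 and 7.41 CPM in the E18 pair, 10.8 and 13.4 in the E21 pair and 18.7 and 27.8 in the E28 pair (log2 1.51, SE 0.24, edgeR adjusted p = 0.00758). The stages were in order of age, and covered lengths differed 2.01 times (log2 1.83 with covered length as offset). MYOD1, which commits cells to the muscle lineage, had 24.7 and 26.1, 22.9 and 21.7, and 25.3 and 29.9 (log2 0.12, edgeR adjusted p = 0.531). SOX6, a repressor of slow fibre genes, had 36.0 and 35.8, 36.9 and 29.8, and 35.5 and 35.3 (log2 -0.02, edgeR adjusted p = 0.915). For both the stages overlapped. TEAD1, a factor that binds MCAT elements of muscle genes, rose (log2 0.55), and SIX4, a homeobox regulator of early myogenesis and the most open of the list at 12.8%, was at 0.01. MEF2C, a partner of the myogenic factors that was named after its value was seen, had 0.738 and 0.902 CPM in the E18 pair, 2.36 and 2.41 in the E21 pair and 2.98 and 5.67 in the E28 pair (log2 2.35, SE 0.40, edgeR adjusted p = 0.00886, covered lengths 2.15 times apart, 1.47 with covered length as offset). The promoter that was lower, also named after its value was seen, was that of HEYL, a transcriptional repressor of the Notch pathway. It went from 9.66 and 8.79 through 7.47 and 7.71 to 3.64 and 3.21 (log2 -1.43, SE 0.24, edgeR adjusted p = 0.00867, covered lengths 2.04 times apart, -0.64 with covered length as offset).

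Genes of the sarcomere and of muscle cells had 26 shared promoters, of which 6 rose and 5 fell (median 0.08), and only 7 had stable covered lengths. With covered length as offset 16 were higher and 2 lower (median 0.59), beside 51.9% and 5.65% of all promoter regions (median 0.37). Without the E18 DZ library the median of the list was 0.06. The following were named after their values were seen. CHRNA1, the acetylcholine receptor chain of the motor endplate, had 0.945 and 0.826 CPM in the E18 pair, 4.42 and 7.82 in the E21 pair and 12.4 and 24.3 in the E28 pair. Its log2 fold change was 4.27 (SE 0.38, edgeR adjusted p = 0.00268), and 2.08 with covered length, which differed 6.06 times, as offset. MYLPF, the fast regulatory light chain, rose by 3.65 (covered lengths 17.0 times apart), and with the offset the value was 0.59 (adjusted p = 0.0875). TTN, the giant spring protein titin, had 1.58 and 1.36, 1.93 and 2.27, and 4.34 and 8.11 (log2 2.03), and TPM3, slow tropomyosin, rose by 1.13 at stable covered length. MYBPC1, slow myosin-binding protein C, went the other way, from 8.65 and 9.33 through 5.76 and 4.62 to 1.28 and 1.60 (log2 -2.64, SE 0.31, edgeR adjusted p = 0.00370, covered lengths 2.64 times apart, -1.58 with covered length as offset). MYH7, the slow myosin heavy chain and the most open of the list at 8.35%, fell by 0.67.

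Of 11 shared promoters of fibroblast and mesenchyme markers 6 rose and 1, TCF21, fell (median 0.46), and with stable covered length fitted alone 4 of 9 were higher and 1 lower. With covered length as offset 10 were higher and 1 lower (median 0.85), beside 51.9% and 5.65% of all promoter regions (median 0.37). Without the E18 DZ library the median of the list was 0.42, and without the E18 ZZ library 0.50. Besides DCN and COL3A1, the rises named after values were seen were LUM, the proteoglycan lumican, from 8.53 and 8.60 through 14.9 and 17.1 to 30.3 and 25.7 (log2 1.71), and POSTN, the matrix protein periostin (log2 1.47). LUM was not among the 10 largest rises called at stable covered length, and no value with the offset is given for it. FBN1, the microfibril protein and the most open of the list at 9.22%, was at 0.24 (edgeR adjusted p = 0.0816).

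Promoters of markers of other tissues had more falls than rises in the myotome. The median open share of these lists was 2.28% to 3.56%, apart from neural crest markers (6.12%). Among 2524 promoter regions of like openness (1.87% to 3.85%) 171 were higher and 680 lower (median -0.22). Of the 1455 of these with stable covered length, fitted alone, 71 were higher and 519 lower (median -0.29). Of 11 epithelial markers 8 fell and 1 rose (median -0.99), and with stable covered length fitted alone 5 of 6 were lower and 1 higher. KRT8 and KRT18, partner keratins of simple epithelia named after their values were seen, had 43.3 and 40.9, and 45.7 and 46.6, CPM at E18. At E28 KRT8 was at 6.33 and 6.09 and KRT18 at 6.13 and 1.58, with log2 fold changes of -2.76 and -3.76. Their covered lengths differed 2.84 and 8.94 times, and with the offset the values were -1.29 and -1.59. CDH1, epithelial cadherin, fell by 0.99 at stable covered length, and GRHL3, a factor of the epidermis, rose by 0.87.

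Of 7 neural progenitor markers 5 fell and 0 rose (median -0.69), and of 12 neuron markers 5 fell and 0 rose (median -0.28). NEUROG2, a proneural factor, went from 47.8 and 58.0 through 43.9 and 38.2 to 26.4 and 27.7 CPM (log2 -0.97, SE 0.14, edgeR adjusted p = 0.00571). SYT1, a synaptic vesicle protein, fell by 0.49. ELAVL2, a neuronal RNA-binding protein named after its value was seen, fell by 2.52, and by 0.67 with its covered length, which differed 4.52 times, as offset. NEUROG1, named in the same way, fell by 1.54, and with the offset stood at -0.12 (adjusted p = 0.548). Of the neural crest markers EDNRB, the endothelin receptor of crest and melanocyte precursors, fell from 58.2 and 64.0 to 14.2 and 11.6 (log2 -2.25, covered lengths 1.58 times apart, -1.66 with the offset, also named after its value was seen), while NGFR was at 0.05. Of 6 endothelial markers 4 fell and ERG, an endothelial factor, rose by 0.56 (median -0.97). Of 11 cartilage markers 4 fell, SOX5, a partner of SOX9, by 0.61 at stable covered length. Of 6 blood markers 2 fell. With covered length as offset 51.9% of all promoter regions were higher and 5.65% lower, with a median of 0.37. The median of each of these lists lay below that of all promoter regions. It was -0.44 for epithelial, -0.12 for neural progenitor, -0.13 for endothelial and -0.18 for blood markers. For neuron and neural crest markers it was 0.19 each, and for cartilage markers 0.03. More falls than rises were then called only for epithelial markers (6 lower, 1 higher) and cartilage markers (2 lower, 1 higher). Of the neural progenitor markers 2 were then higher and 2 lower, of the neuron markers 3 and 2, of the neural crest markers 1 and 1, of the endothelial markers 1 and 0, and of the blood markers 0 and 0. At stable covered length fitted alone 2 of 3 neural progenitor, 1 of 4 neuron, 2 of 6 cartilage and 2 of 3 blood markers were lower, and 0 were higher. Of 1455 such promoter regions of like openness 519 were lower and 71 higher. The neuron and cartilage counts did not exceed that share of falls. Without the E18 DZ library the falls numbered 4 for epithelial, 2 for neural progenitor, 3 for neuron and 1 for neural crest markers, and 0 for endothelial, cartilage and blood markers.

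Ribosomal protein genes had 71 shared promoters, of which 55 rose and 2 fell (median 0.53), and 22 were higher and 0 lower among 51 of stable covered length fitted alone (median 0.29). RPL23 had 16.1 and 17.1 CPM in the E18 pair, 21.5 and 22.5 in the E21 pair and 24.5 and 38.9 in the E28 pair (log2 0.91, SE 0.19, edgeR adjusted p = 0.0156). The lower ones were RPS3 and RPL30, both of unstable covered length. Without the E18 DZ library 7 of the 71 were called, all higher. Of 8 shared promoters of the chaperonin CCT, which folds actin and tubulin, 6 rose (median 0.51), led by TCP1 (log2 0.72). Of 31 of the proteasome 18 rose and 0 fell (median 0.42), among them PSMB6 (0.85) and PSMB3 (0.81). Of 39 of RNA polymerase II and Mediator 20 rose and 1 fell (median 0.41). POLR2A, the largest subunit of the polymerase (chr12:52778403-52781185), went from 69.2 and 67.2 through 85.1 and 99.2 to 112 and 152 CPM (log2 0.94, SE 0.12, edgeR adjusted p = 0.00483). Of 41 of the spliceosome 26 rose and 0 fell (median 0.41), and SRSF2, a serine-rich splicing factor (chr12:4799123-4801983), went from 55.5 and 54.0 through 68.0 and 77.9 to 85.7 and 115 (log2 0.86, SE 0.12, edgeR adjusted p = 0.00590). In each of POLR2A and SRSF2 the stages were in order of age without overlap. For stable covered length fitted alone the calls were 4 higher and 0 lower for CCT (median 0.27), 8 and 1 for the proteasome (0.19), 8 and 1 for RNA polymerase II and Mediator (0.17) and 12 and 0 for the spliceosome (0.17). Without the E18 DZ library 3 of CCT, 2 of the proteasome, 5 of RNA polymerase II and Mediator and 3 of the spliceosome were called, all higher.

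Other general lists had lower medians or fewer calls. Of 40 replication promoters 17 rose and 2 fell (median 0.27), RPA2, a single-strand DNA-binding subunit, by 0.70, while CDT1, an origin licensing factor, fell by 0.49 but stood at 0.01 with covered length as offset. Of 41 mitosis promoters 15 rose (median 0.22), of 55 of oxidative phosphorylation 13 (median 0.26), of 20 of the aminoacyl-tRNA synthetases 6 (median 0.20), of 11 of cohesin and CTCF 8 (median 0.34), of 20 of Polycomb 9 (median 0.30) and of 15 of cholesterol synthesis 6 (median 0.33), with 0 falls in each. The share for oxidative phosphorylation (23.6%) was close to the 24.3% of all promoter regions. The median open share was 9.54% for cohesin and CTCF, 7.9% for Polycomb and 9.68% for cholesterol synthesis, beside 4.78% for all promoter regions. In the most open part of the promoters (8.14% to 26.3%) 1499 of 2525 were higher and 28 lower (median 0.36). Among regions of stable covered length fitted alone, 5 replication promoters were higher and 3 lower, 5 and 4 of mitosis, 2 and 3 of oxidative phosphorylation, 0 and 1 of cohesin and CTCF, 5 and 4 of Polycomb, 3 and 0 of the synthetases and 3 and 0 of cholesterol synthesis. The medians on that scale were 0.03 for replication, -0.01 for mitosis, 0.02 for oxidative phosphorylation, -0.05 for the synthetases, 0.10 for cohesin, 0.11 for Polycomb and 0.07 for cholesterol synthesis. Of these lists only the synthetases lay below the -0.03 of all such promoter regions. Without the E18 DZ library 4 replication promoters were called, 2 each of mitosis, oxidative phosphorylation and Polycomb and 1 of cholesterol synthesis, all higher. Of 17 glycolysis promoters 1 rose and 4 fell (median 0.01), SLC16A3, the lactate exporter MCT4, by 1.13 (from 60.5 and 57.5 to 30.2 and 24.0 CPM). With covered length as offset 9 of the glycolysis promoters were higher and 1 lower (median 0.37). This was near the 51.9% and 5.65% of all promoter regions (median 0.37). At stable covered length fitted alone 0 of 12 were higher and 4 lower (median -0.17), beside 12.8% and 21.0% of all such promoter regions (median -0.03). Of 13 immediate early genes within the width limit 4 rose, among them DUSP1, a phosphatase of MAP kinases (0.62), and 1 fell (median 0.19), and 20 further genes of that list lay in wider regions.

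**Figure D5:**
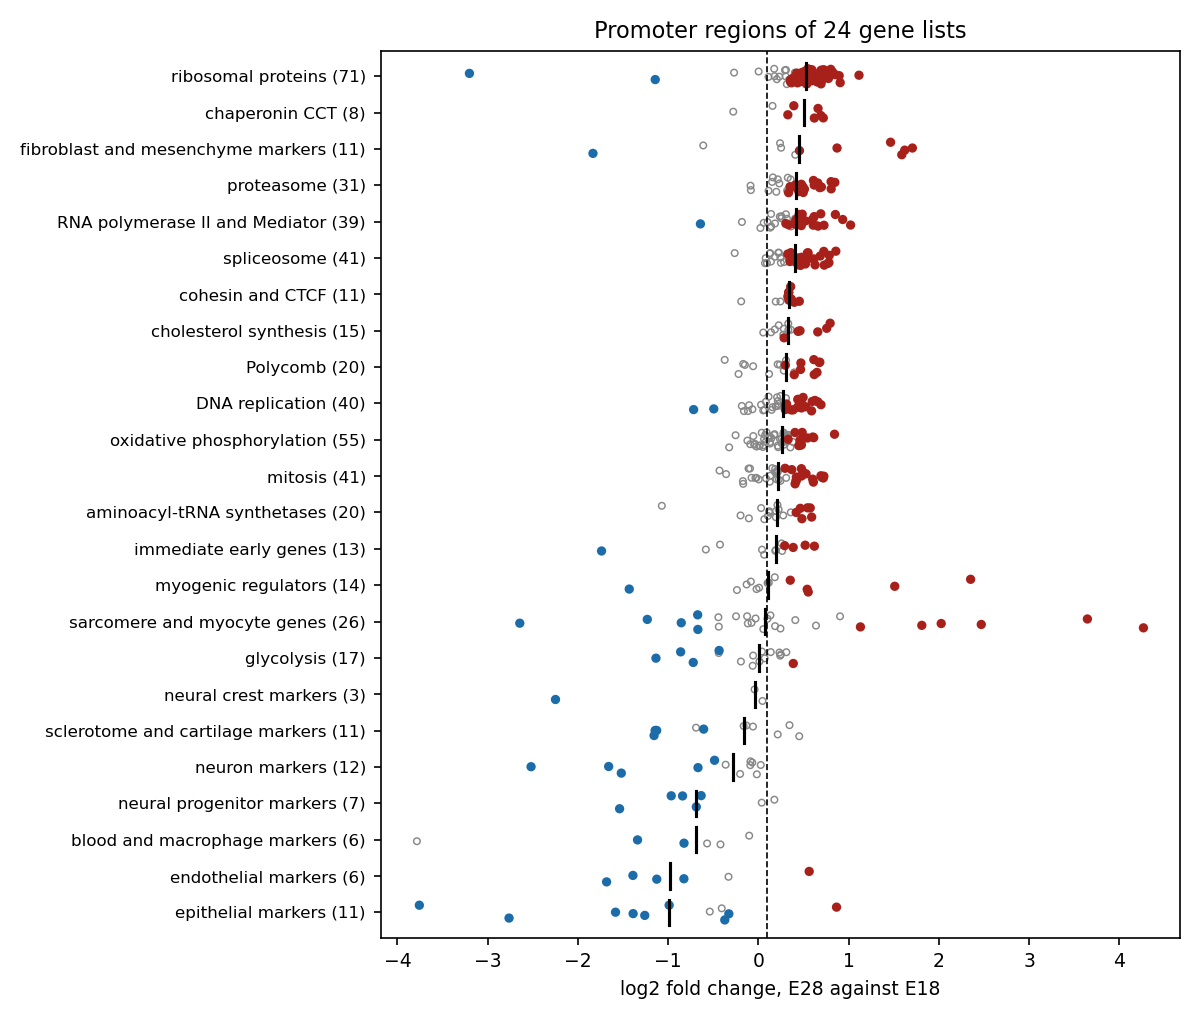
log2 fold change of E28 against E18 (horizontal axis) of each shared promoter region in 24 gene lists, ordered by median, with the number of genes with such a region in brackets. Filled points are called higher (red) or lower (blue), open points are not called, black bars are list medians and the dashed line is the median of all promoter regions, 0.10; ribosomal proteins have the highest median (0.53) and epithelial markers the lowest (-0.99).

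The steps within this interval had few calls. These comparisons share the E18 or E28 libraries with the one above, and share the E21 libraries with each other. From E18 to E21 160 promoter regions were higher and 157 lower by counts (1.27% and 1.24%), where 4.8% and 1.78% of all shared regions were, and 845 were higher and 214 lower by open share, beside 8.81% and 2.56%. From E21 to E28 378 were called by counts, 245 of them lower (1.05% of the promoter regions higher and 1.94% lower), beside 2.53% and 4.61% of all shared regions, and 475 were higher and 407 lower by open share, beside 4.5% and 7.06%. By open share without thinning the first step had 492 higher and 495 lower, beside 9.18% and 5.19% of all shared regions, and the second 119 and 1499, beside 3.65% and 16.0%. Thinned to 1500 fragments within shared regions they had 341 and 327, beside 6.34% and 3.23%, and 307 and 523, beside 3.95% and 7.86%. Thinned to 1000 fragments the second step had 344 higher and 403 lower, beside 3.78% and 6.47%. By counts the directions also differed between settings. At stable covered length 74 were higher and 26 lower from E18 to E21 and 77 higher and 36 lower from E21 to E28, where 2.46% and 0.332%, and 1.8% and 0.636%, of all such shared regions were. When those regions were fitted alone 108 promoters were higher and 289 lower in the first step (1.29% and 3.46%), beside 6.12% and 3.29% of such shared regions, and 99 were higher and 468 lower in the second (1.19% and 5.61%), beside 4.43% and 5.12%. With covered length as offset 1546 were higher and 441 lower in the first step (12.2% and 3.49%), beside 13.0% and 4.69% of all shared regions, and 4232 higher and 140 lower in the second (33.5% and 1.11%), beside 30.2% and 2.26%. The counts of both steps went to 0 without either E21 library, and that of E21 against E18 to 4 without the E18 DZ library.

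From E18 to E21 the largest rises at stable covered length that were not among the genes above were TMEM94 (log2 1.25), DPT, the matrix protein dermatopontin (1.10), MFAP4, a microfibril-associated protein (1.05), TMPRSS12 (0.98) and FXYD3, a regulator of the sodium pump (0.90). MFAP4 had 17.5 and 13.4 CPM in the E18 pair, 32.1 and 31.4 in the E21 pair and 47.4 and 39.6 in the E28 pair, while FXYD3 had 9.89 and 9.51, 18.5 and 17.7, and 10.7 and 9.87. FXYD3 was thus high at E21 alone. The largest falls included SEMA3E, a guidance cue of axons and vessels (-1.18), C1H9orf66 (-0.98), DND1, a germ cell RNA-binding protein (-0.95), and EPHX2, an epoxide hydrolase (-0.83). From E21 to E28 the rises were led by TM4SF1 (1.74), which had 7.05 and 7.18 CPM in the E18 pair, 6.00 and 5.67 in the E21 pair and 18.9 and 20.1 in the E28 pair. It was followed by GRHL3 (1.53), ABI3BP (1.42), CCDC8 (1.38) and GNG11 (1.18). The falls were PTPRN, a protein of secretory granules (-1.02), CDH6, a cadherin of neural and renal epithelia (-0.97), KCNB2, a voltage-gated potassium channel (-0.94), PCDH20, a protocadherin (-0.82), and RCAN2, a calcineurin regulator (-0.80).

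No promoter region was called between the breeds by either test. DZ against ZZ, over the 3 stages, gave 0 calls by edgeR counts, where 0.0% of all shared regions were called, and 0 by open share, likewise beside 0.0%. At an unadjusted p under 0.05 there were 368 promoter regions by counts and 614 by open share, and DESeq2 called 12. The median log2 fold change of DZ against ZZ was 0.01 and the median absolute value 0.10. These counts do not show that the breeds were alike, since 3 libraries stood on each side.

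Promoter sequence was read from 250 bases before to 50 bases after the start for 24338 autosomal gene starts. Starts with a shared promoter region narrower than 5000 bp had a median GC content of 62.3% and a CpG observed to expected ratio of 0.754. The other starts, which include those in wider shared regions, had 48.7% and 0.302. A GC box was found in 62.5% of the former and 19.6% of the latter, beside 44.8% of all starts, the ETS motif CCGGAAG in 15.0% and 2.47%, and a TATA box in 7.07% and 17.5%. Base composition and motifs were not used in choosing the regions.

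Genes were next grouped by the calls of E28 against E18 made with all shared regions, a grouping whose split between higher and lower depended on the scaling. Within the shared promoters of stable covered length, CCAAT was found before 46.0% of 3331 genes whose promoter was higher at E28, 26.7% of 629 whose promoter was lower and 32.2% of 6007 not called, beside 35.2% of all starts. The NRF1 core GCATGCGC was found in 7.09%, 1.75% and 4.26%, the CRE TGACGTCA in 5.10%, 1.27% and 2.78%, and the YY1 motif ATGGCGGC in 5.10%, 1.59% and 3.90%. The ETS motif was found in 19.2%, 8.27% and 18.3%, the E-box CACGTG in 9.52%, 5.56% and 9.44%, the E-box CAGCTG in 13.4%, 15.7% and 15.5%, and the AP-1 motif TGAGTCA in 1.74%, 1.91% and 2.53%. The GC box was found in 67.2% of the higher and 67.7% of the lower. When regions of stable covered length were fitted alone, CCAAT was found in 47.9% of 1329 higher, 29.2% of 2012 lower and 36.4% of 6626 not called, the NRF1 core in 6.77%, 2.09% and 5.6%, and the GC box in 64.3%, 69.2% and 66.1%. From the least to the most open of the 5 parts CCAAT was found in 29.7%, 26.5%, 29.3%, 35.9% and 48.6% of genes and the GC box in 34.6%, 59.8%, 67.1%, 69.6% and 73.0%. The promoters that rose over 2-fold were poorer in GC and CpG as a group. NEB, shown above, lay at the low end, while the 150 bases before RHOJ and GAST had a GC content of 65.3% each and those before RASSF9 and TMIE 64.0% and 66.0%. The 92 genes had a median GC content of 50.2%, a CpG ratio of 0.359, a GC box in 25% and a TATA box in 15.2%, while the 100 genes whose promoter fell over 2-fold had 61.8%, 0.542 and a GC box in 59.0%. Each motif was searched on both strands, the motifs do not contain one another, and a match does not show that a factor was bound.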

How the data were processed

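scATAC-seq libraries were made by the authors on the 10× Chromium platform and processed with Cell Ranger ATAC, and per the labels Seurat (3.1.1) and Signac (0.2.2) were used further. The deposited files hold raw counts (cut sites per peak and barcode) and a peak list per library, so each library has its own peaks. No molecular identifiers exist, no cell type annotation was used and no doublet caller was run.

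Peaks of the 6 libraries were merged, and counts of barcodes with 2000 to 30000 counts were summed per merged region and library. Regions with a peak of all 6 libraries were tested with edgeR (4.0.16, glmQLFit, TMM, filterByExpr, which removed 0 regions) in R 4.3.3. The open share was tested with limma (3.58.1) on the logit of the share of barcodes with a fragment, a count c being taken as the whole part of (c+1)/2 fragments. DESeq2 (1.42.0) was an alternative. Each gene start was that of the RefSeq annotation, and list genes were also matched by older symbols. Both fits were tested on simulated data. GC content and motifs were read from the genome.

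The members, lists and tests were chosen with earlier results of these data known. Named genes were the 10 largest rises and falls of E28 against E18 and the 5 largest of each of the other steps, called by edgeR, with covered lengths within 1.5 times, the same direction in both breeds and a named gene. To these were added the 10 most and 5 least open, the regions nearest the width limit, genes the study names, and in each list the largest rise and fall and the most open member. The strata of open share, thinning to 1500 fragments within shared regions, and lists under library totals or DESeq2 size factors were chosen after seeing the data. One gene that the rule names is not reported here.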

Additional observations from a re-analysis of the deposited data

Results flagged for a closer look

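Among the named promoters that were not called, 3 had E28 against E18 differences of opposite sign in the 2 breeds. The log2 difference in ZZ and in DZ was 0.0630 and -0.0511 for SIX4, 0.460 and -0.0512 for COL11A1, and 0.101 and -0.0102 for NGFR. With 1 library per stage and breed the difference between breeds was not tested.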

How the results depend on the processing

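Of the 4 comparisons by counts, E28 against E18 stayed within 1.5 times of its 5005 calls under the other settings with all libraries, except within stable covered lengths fitted alone (2828 of 8346). The smaller steps depended on the setting: E21 against E18 gave 1606 calls with DESeq2, 1987 with covered length as offset and 821 with peaks open in at least 1% of barcodes, and E28 against E21 gave 1976, 4372 and 994. DZ against ZZ gave 12 with DESeq2. By open share, E21 against E18 gave 668 when thinned to 1500 fragments within shared regions, and E28 against E21 gave 1618 without thinning. Without thinning E28 against E18 had 1036 higher and 3620 lower, and thinned within shared regions 2139 and 2430. List calls numbered 402 with the offset and 123 within stable covered lengths.

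Leaving out 1 library at a time, which leaves 1 residual degree of freedom, gave 862 to 5279 calls by counts for E28 against E18, 0 to 1782 for E21 against E18, 0 to 2126 for E28 against E21 and 0 to 0 for DZ against ZZ. By open share the ranges were 1524 to 5858, 8 to 3316, 0 to 3195 and 0 to 32, and for the lists 49 to 260. The lowest counts for E28 against E18 and for the lists were those without E18 DZ. The cause was not tested. The stage comparisons have breed as a block, and without the breed term they gave 5082, 372 and 408 calls by counts, within 1.5 times of those with it.

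The share of counts at E18, E21 and E28 was 37.3%, 40.6% and 42.8% with starts of all transcripts, and 40.0%, 43.2% and 45.6% without the width limit. At E18 and E21 it was 33.0% and 36.1% with a window of 1 kb, and 33.2% and 36.3% with peaks open in at least 1% of barcodes. With covered length as offset 3 named promoters changed sign, CDT1 (0.0137), ISL1 (0.48) and ESRP2 (0.0417). Of the values of named promoters under settings with all libraries, 671 kept direction and side of the threshold, 19 were no longer called and 8 newly called; without 1 library, 390 kept both, 135 were no longer called and 3 newly called. Of the 88 named promoters 41 were no longer called without E18 DZ, 29 without either E21 library, 21 without E18 ZZ, 13 without E28 DZ and 2 without E28 ZZ.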
